A study of Mus musculus with 2 samples.

Results

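The messenger RNAs of 10 circadian clock genes were measured in mouse embryonic fibroblasts that the labels call Xbp1 knockout, and day 3 of adipogenesis induced with drugs was set against day 0. The genes were Per1, Per2, Per3, Cry1, Cry2, Arntl, Clock, Nfil3, Dbp and Tef, chosen as core clock or clock output genes by their symbol or an older synonym in the platform annotation. All 10 were among the 16637 named genes on the array, with 13 probes in all, and Per3 and Clock had more than 1 probe. Each day was 1 single-colour array from 1 sample, so the differences are unreplicated and were not tested.

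On day 3 the cells had been through 72 h of medium with troglitazone at 5 µM, an agonist of the nuclear receptor PPARγ, insulin at 10 µg/ml, DXM at 5 µM and IBMX at 0.25 mM, which blocks the breakdown of cAMP. Day 0 was the day of confluence, on which this treatment began. Both samples carry the Xbp1 knockout label, Xbp1 being a transcription factor gene of the unfolded protein response, and no sample with intact Xbp1 was used here. The sources used here give neither the number of embryos or clones behind the cells nor the hour of collection on either day.

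The circadian clock is a transcriptional loop that runs with a period of about a day in nearly every cell type, cultured fibroblasts included. Its activators, CLOCK and ARNTL (also called BMAL1), pair on E-box elements of DNA and switch on the Per and Cry genes, whose proteins return to the nucleus and repress that pair. A second loop, in which ROR receptors activate and NR1D receptors repress through a shared response element, times Arntl, and a further loop runs through the D-box, which DBP, TEF and HLF activate and NFIL3 represses. Glucocorticoids and agents that raise cAMP are known to set the clocks of cultured fibroblasts. Because each day is a single time point, a shift in the phase of a rhythm and a change in its mean level cannot be told apart here, and neither can fewer cells expressing a gene and less RNA per cell.

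The promoter letters of the members show which of these elements lie close to their starts. Windows from 250 bases before to 50 bases after a gene start were taken from RefSeq, build GRCm38.p6, and 9 of the 10 genes matched, Per2 being the other one. The motifs searched on both strands were the E-box CACGTG, the variant E-box CACGTT, the D-box as TTATGTAA or TTACGTAA, the cAMP response element TGACGTCA and the ROR element TAGGTCA. The 6 windows that follow are shown because they hold, in capitals, an element of the loop for the genes that stood highest on day 3 or that carry the D-box and E-box examples. A match on the opposite strand reads as its reverse complement, AACGTG in Cry2 and TGACCTA in Nfil3, and no match shown overlaps another.
Per1, chr11:69098699-69098998, plus strand: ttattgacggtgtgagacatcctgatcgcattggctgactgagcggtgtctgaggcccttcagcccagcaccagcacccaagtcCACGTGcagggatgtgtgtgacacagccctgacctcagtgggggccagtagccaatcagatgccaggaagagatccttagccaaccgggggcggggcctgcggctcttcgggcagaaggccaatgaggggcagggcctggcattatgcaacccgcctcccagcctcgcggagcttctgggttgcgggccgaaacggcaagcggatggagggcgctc
Per3, chr4:151044616-151044915, minus strand: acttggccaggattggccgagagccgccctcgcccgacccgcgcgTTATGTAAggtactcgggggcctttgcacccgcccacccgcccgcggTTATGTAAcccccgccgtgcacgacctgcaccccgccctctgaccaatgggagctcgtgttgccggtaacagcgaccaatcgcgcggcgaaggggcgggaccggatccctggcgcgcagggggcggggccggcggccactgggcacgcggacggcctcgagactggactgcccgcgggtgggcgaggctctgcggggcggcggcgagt
Cry2, chr2:92434020-92434319, minus strand: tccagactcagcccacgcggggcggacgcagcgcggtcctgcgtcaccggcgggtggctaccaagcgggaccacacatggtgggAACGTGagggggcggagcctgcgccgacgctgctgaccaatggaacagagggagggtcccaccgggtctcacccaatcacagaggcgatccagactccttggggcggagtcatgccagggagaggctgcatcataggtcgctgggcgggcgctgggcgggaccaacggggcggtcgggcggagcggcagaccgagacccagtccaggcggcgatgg
Arntl, chr7:113207261-113207560, plus strand: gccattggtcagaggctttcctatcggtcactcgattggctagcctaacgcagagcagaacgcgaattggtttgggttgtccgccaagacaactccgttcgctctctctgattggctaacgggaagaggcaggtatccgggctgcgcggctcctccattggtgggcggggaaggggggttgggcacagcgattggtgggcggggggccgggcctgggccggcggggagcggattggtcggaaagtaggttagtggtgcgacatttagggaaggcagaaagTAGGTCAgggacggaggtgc
Nfil3, chr13:52980990-52981289, minus strand: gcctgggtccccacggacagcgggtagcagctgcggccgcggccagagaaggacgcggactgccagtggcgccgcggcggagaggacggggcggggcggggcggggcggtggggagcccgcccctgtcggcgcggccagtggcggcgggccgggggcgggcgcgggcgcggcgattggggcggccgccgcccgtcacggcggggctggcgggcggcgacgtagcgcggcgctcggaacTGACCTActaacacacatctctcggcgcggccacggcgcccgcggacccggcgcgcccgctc
Tef, chr15:81802423-81802722, plus strand: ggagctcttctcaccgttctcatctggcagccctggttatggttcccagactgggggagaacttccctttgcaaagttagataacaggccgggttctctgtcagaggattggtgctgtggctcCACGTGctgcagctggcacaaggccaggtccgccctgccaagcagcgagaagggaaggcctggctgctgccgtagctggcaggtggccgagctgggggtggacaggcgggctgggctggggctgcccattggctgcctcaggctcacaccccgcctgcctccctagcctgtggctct

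The E-box CACGTG was found in windows of Per1, Cry1 and Tef, 3 of 9 genes, against 8.09% of the 27025 genes in the promoter table. It began at base -166 relative to the first Per1 start, and Tef had it at both of its listed starts. The variant CACGTT was found for Cry1 and Cry2 (2 of 9, against 5.44% of all genes). Per3 was the only member with the D-box, which it held from bases -205 and -158 relative to its start, against 1.23% of all genes. The ROR element was found for Arntl and Nfil3 (2 of 9, against 2.97%), from base 31 relative to the second Arntl start and from base -12 relative to the Nfil3 start. None of the 9 held the full cAMP response element, which 2.03% of all genes held. These are matches of letters within 300 bases and describe neither binding nor regulation.

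Signals are fluorescence intensities, quantile normalized between the arrays, and differences are log2 of day 3 minus log2 of day 0. A probe was called detected above 122, the median signal of all gene probes. The error beside a difference is the SD that spots printed 5 or 6 times on the same arrays would give. It is stated from the median feature and, as the larger value, pooled over features, and it leaves out variation between cultures. Of 10 clock genes, 9 exceeded the threshold on some day and 8 exceeded it on both. On day 3, 2 of the 9 detected members were at least 2-fold higher and 0 were 2-fold lower, while 12.8% of all 10656 detected genes were 2-fold higher and 10.3% 2-fold lower. The median difference of the 9 was 0.07, against 0.03 for all detected genes, and 5 of the 9 differed by less than 1.5-fold, as did 54.9% of all detected genes. With signals below the threshold set to it, the counts were again 2 and 0, against 10.2% and 8.51% of all detected genes. A count of 2 among 9 genes is too small to be read as standing apart from these shares. The members fell into 4 genes toward day 3 (Per1, Nfil3, Arntl and Cry2) and 5 close to or below 0.

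**Figure D1:**
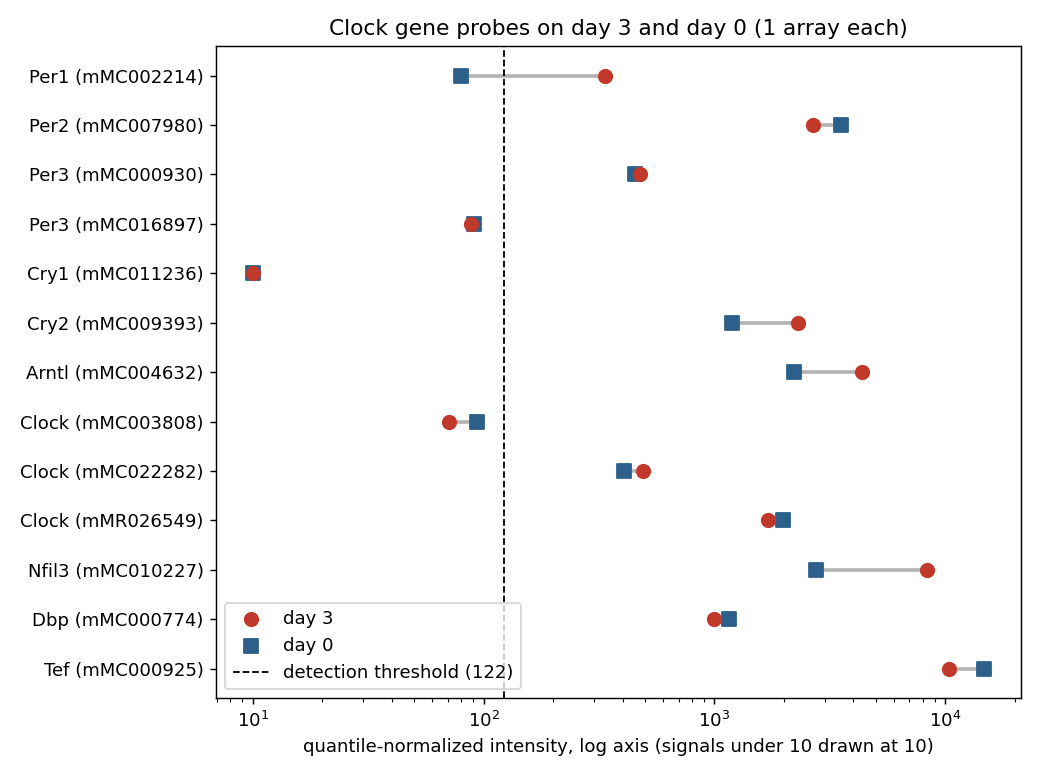
Quantile-normalized intensity (log axis) of the 13 probes of the 10 clock genes, with day 3 as red circles, day 0 as blue squares and the detection threshold of 122 as a dashed line; each point is 1 array. Per1 crosses the threshold between the days, Nfil3, Arntl and Cry2 lie to the right on day 3, and Cry1 sits at the floor of 10 on both.

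Among the activators, Arntl was higher on day 3 and Clock was not separated from its spot error. Arntl, the partner without which the loop does not run, had a signal of 4351 on day 3, against 2207 on day 0. The difference was 0.98 (1.97-fold), where the repeat-spot SD was 0.42 (0.58 pooled), and 13.2% of detected genes had a larger one. Clock, a histone acetyltransferase as well as a DNA-binding activator, read 1699.5 on day 3, against 1981 on day 0, by its brightest probe, mMR026549. That difference of -0.22 is smaller than the repeat-spot SD of 0.42. The other detected probe of Clock, mMC022282, pointed the other way with 492.5 on day 3 against 407.5 on day 0 (0.27, repeat-spot SD 0.34). Its remaining probe, mMC003808, was below the threshold with 70.5 on day 3 and 93.5 on day 0. Both probes of Clock that were detected therefore lay within 1 repeat-spot SD of 0.

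The 3 Period genes, which encode the PER repressors, did not move together. Per1, the one known for a rapid response to glucocorticoids and cAMP, read 337 on day 3, against 79.5 on day 0. The day 0 signal was below the threshold, so the fold of the quantile-normalized signals is a lower bound of at least 2.76-fold. The repeat-spot SD for Per1 was 0.43 (0.69 pooled) and is not included in the bound. The raw day 0 intensity of 49 still exceeded the 95th percentile of empty spots on that array, 7. On the log2 scale that bound is 1.47, and the value as read, 2.08, rests on a day 0 signal that was not detected. Per2, a Period gene whose loss disrupts rhythms in mice, read 2676.75 on day 3, against 3535 on day 0. Its difference of -0.40 was just under the repeat-spot SD of 0.42. Per3, the member least needed for rhythms in mice, read 474 on day 3, against 452 on day 0 (0.07, repeat-spot SD 0.34). Its other probe, mMC016897, was below the threshold with 88.5 on day 3 and 90.5 on day 0.

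Of the cryptochromes, the stronger partners of PER in repression, Cry2 was higher on day 3 and Cry1 gave no signal to compare. Cry2 read 2307 on day 3, against 1188.5 on day 0. The difference of 0.96 (1.94-fold) exceeded the repeat-spot SD of 0.42 and the pooled value of 0.58, and 13.8% of detected genes had a larger one. The raw intensities of Cry1 were 8 on day 3 and -2 on day 0, inside the range of empty spots, whose 95th percentiles were 9 on day 3 and 7 on day 0. A dim probe is no proof of a silent gene, so Cry1 has no value here. Arntl and Cry2 both stood just under 2-fold.

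Of the output genes of the D-box loop, the repressor Nfil3 was higher on day 3, and the activators Dbp and Tef lay within the pooled spot error. Nfil3, the D-box repressor also known as E4BP4, read 8376.5 on day 3, against 2763.25 on day 0. It was 3.03-fold higher (1.60 on the log2 scale, repeat-spot SD 0.34, 0.85 pooled), the largest fold among the 8 members measured on both days, and 4.45% of detected genes had a larger difference. Dbp, a D-box activator that is among the most strongly rhythmic transcripts of many tissues, read 992 on day 3, against 1156 on day 0. That difference of -0.22 lay within the repeat-spot SD of 0.42. Tef, a second activator of the same PAR bZIP family, read 10349.5 on day 3, against 14718.5 on day 0. Its difference of -0.51 exceeded the repeat-spot SD of 0.34 and was under the pooled value of 0.85.

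**Figure D2:**
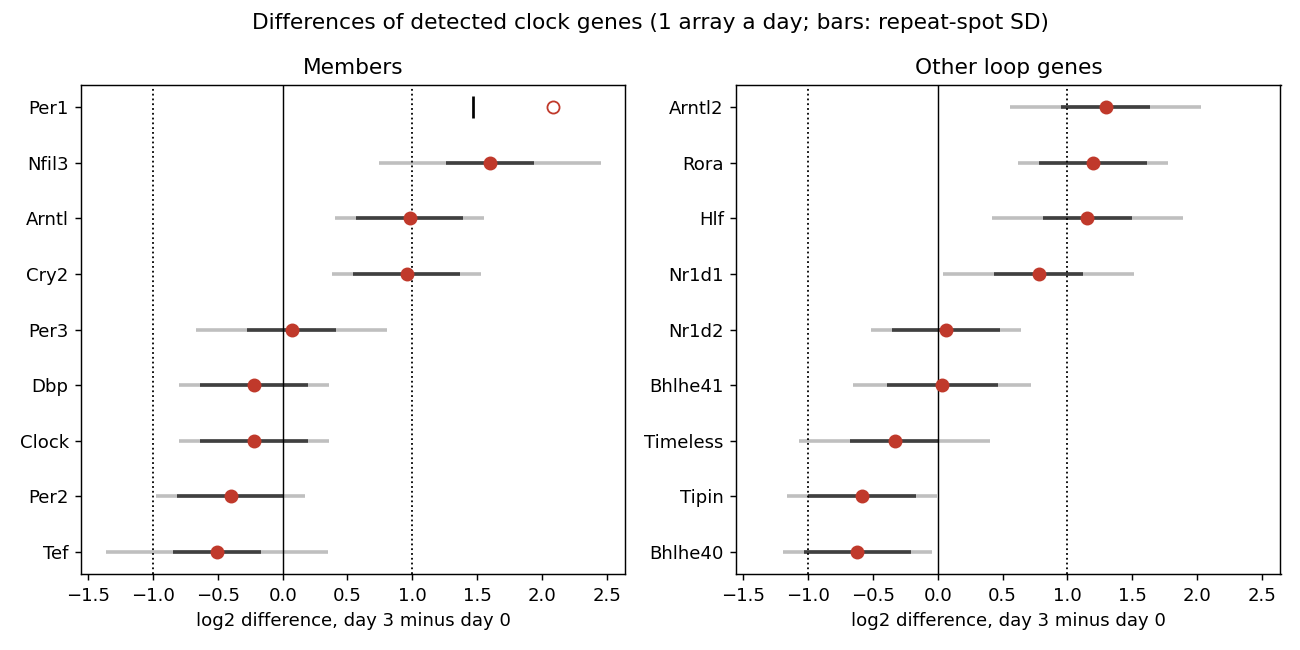
Log2 difference, day 3 minus day 0, of the detected members (left) and of the other detected loop genes (right). Dark bars are the repeat-spot SD from the median feature and light bars the pooled SD, dotted lines mark 2-fold, and the open circle without bars is Per1 as read, whose black tick at 1.47 is its lower bound; Nfil3, Arntl and Cry2 are the members whose light bars stay above 0.

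The members were also set against each other within the arrays, because a constant factor per array cancels in such a contrast. These pairs were chosen after the values were seen and are descriptions. The difference of Nfil3 exceeded that of Dbp by 1.82 (SD 0.54 from the spot errors, 1.03 pooled), and it stayed between 1.70 and 1.83 over 12 settings of the processing. It exceeded that of Tef by 2.11 (SD 0.48, 1.21 pooled), with a range of 2.07 to 2.14. The narrowness of both ranges was largely fixed in advance. Settings that differ by a constant factor per array give the same contrast. Changes of the detection filter or of probe averaging leave these single-probe genes as they were. In the repressor arm, the difference of Per1 exceeded that of Per2 by at least 1.87, with the day 0 signal of Per1 set to the threshold. The difference of Cry2 exceeded that of Per2 by 1.36 (SD 0.59, 0.82 pooled). The difference of Arntl exceeded that of Clock by 1.20 (SD 0.59, 0.82 pooled), and by 0.95 where the detected probes of Clock were averaged. Among repressors and activators of the loop, Per1, Cry2 and Arntl thus stood toward day 3, while Per2 and Clock were not separated from spot error.

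**Figure D3:**
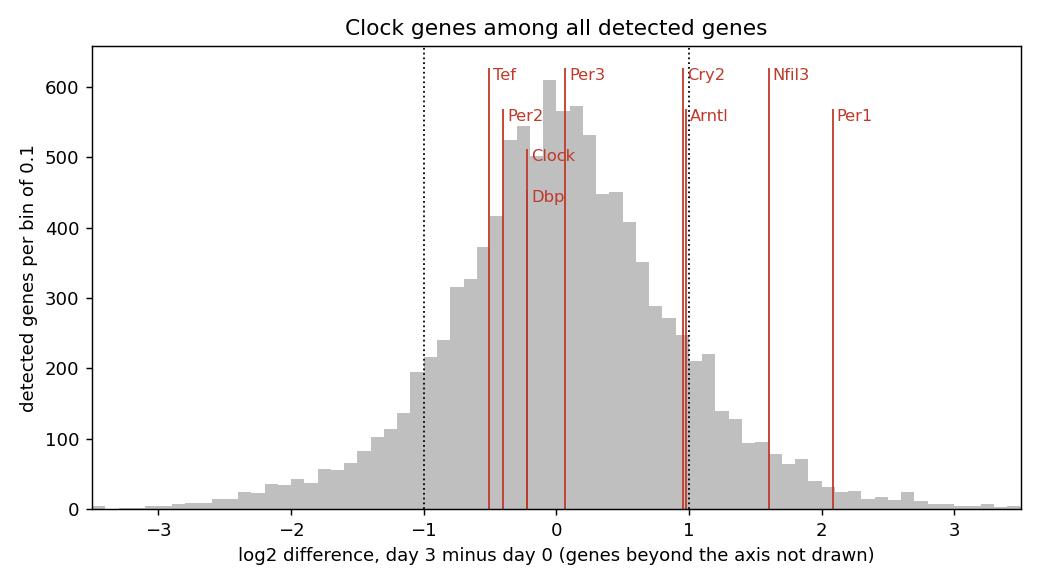
Histogram of the log2 differences, day 3 minus day 0, of all 10656 detected genes in bins of 0.1, with the 9 detected clock genes as red lines and 2-fold as dotted lines. Per1, drawn as read, and Nfil3 lie in the right flank, Arntl and Cry2 just inside the 2-fold line, and the other 5 members in the centre.

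The scaling between the arrays set the sign of the members near 0, the 2-fold count and whether Arntl and Cry2 passed the spot error. The median raw intensity of gene probes was 166 on day 3, against 78 on day 0, and scaling choices placed the median of all detected genes between -0.49 and 0.67. Over 12 settings, the difference of Nfil3 ran from 0.95 to 2.03 as read, that of Arntl from 0.35 to 1.44 and that of Cry2 from 0.38 to 1.47. The lowest values of Arntl and Cry2, under median scaling over all gene probes, lay within the repeat-spot SD of 0.42. Relative to the median of all genes in the same setting, the ranges were 1.37 to 1.62 for Nfil3, 0.77 to 1.00 for Arntl and 0.80 to 0.98 for Cry2. Per1 lay between 1.44, its bound, and 2.52 on that relative scale in 11 settings. Per2 (-0.64 to -0.38), Dbp (-0.34 to -0.20) and Tef (-0.78 to -0.45) were below 0 on it in all 12. As read, Per2 and Dbp were above 0 with no normalization (0.03 and 0.33). Per3 was above 0 on the relative scale in all 12 (0.03 to 0.16) and, as read, below 0 under median scaling over all gene probes (-0.33). Clock was above 0 on the relative scale in 1 setting, with its detected probes averaged (0.03), and as read also with no normalization (0.27).

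**Figure D4:**
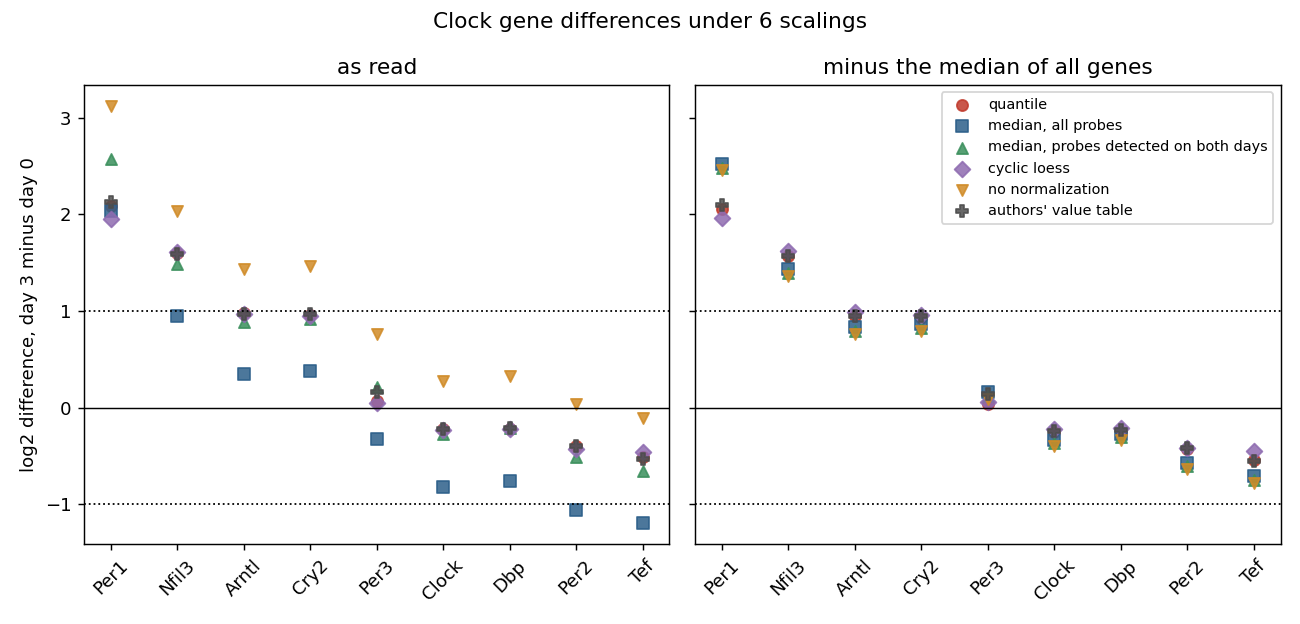
Log2 difference, day 3 minus day 0, of the 9 detected clock genes under 6 scalings, as read (left) and after the median of all genes of that scaling was subtracted (right); each symbol is 1 scaling and dotted lines mark 2-fold. The spread within a gene on the left, from 0.35 to 1.44 for Arntl, narrows on the right, where Per1, Nfil3, Arntl and Cry2 stay above Per3, Clock, Dbp, Per2 and Tef. The median scalings and no normalization differ by a constant factor per array, so subtracting the median removes most of their spread by arithmetic.

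Genes of the loop outside the 10 members were read from a list of 13, of which 11 were on the array and 9 were detected on both days. At least 2-fold higher on day 3 were 3 of the 9 and 0 were 2-fold lower, with a median of 0.06. Over all detected genes the shares were 12.8% and 10.3%, and 9 genes are too few to be read as standing apart from them. Arntl2, a paralog of Arntl, read 596.5 on day 3, against 243 on day 0 (1.30, repeat-spot SD 0.34, 0.74 pooled), and its other probe was below the threshold on both days. Rora, an activator at the ROR element, read 5173.5 on day 3, against 2257 on day 0 (1.20, repeat-spot SD 0.42, 0.58 pooled). Hlf, the remaining D-box activator, read 1197.5 on day 3, against 538.5 on day 0 (1.15, repeat-spot SD 0.34, 0.74 pooled). All 3 stayed above 0 in 12 of 12 settings, with the lowest values at 0.61 for Arntl2, 0.56 for Rora and 0.67 for Hlf. Of the 3 D-box activators, Hlf was thus higher on day 3, as was the repressor Nfil3, while Dbp and Tef were not separated from the pooled spot error.

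The receptors that oppose Rora at the same element were less far from 0. Nr1d1, which encodes REV-ERBα, read 1034 on day 3, against 602.5 on day 0. Its difference of 0.78 was past the repeat-spot SD of 0.34 and barely past the pooled 0.74. Nr1d2 gave 0.06 by its brightest probe and -0.52 by its other detected probe, with 133 on day 3 against 191.25 on day 0 (repeat-spot SD 0.43, 0.69 pooled). The E-box repressors also stayed under 2-fold: Bhlhe40 read 1040.5 on day 3, against 1599 on day 0 (-0.62, repeat-spot SD 0.42, 0.58 pooled), and Bhlhe41 differed by 0.03. The Bhlhe40 difference was past the repeat-spot SD and barely past the pooled value. It was below 0 in 12 of 12 settings, with -0.10 as the value nearest 0. Npas2, which can stand in for Clock, was below the threshold on both days, with 80.5 on day 3 and 27 on day 0 by its brightest probe. Its raw intensity of 111 on day 3 was above the empty spots, so its level is only bounded by the threshold.

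The detected enzymes that act on PER and CRY proteins all stayed under 2-fold by their brightest probes. Of 15 listed kinases, phosphatases and ubiquitin ligases, 14 were on the array, 12 were detected, and 0 were 2-fold higher or lower, with 10 of 12 under 1.5-fold and a median of 0.23. Of all detected genes 54.9% were under 1.5-fold, 12.8% were 2-fold higher and 10.3% 2-fold lower, so the 12 are too few to be set apart. Csnk1d and Csnk1e, the casein kinases that mark PER for degradation, differed by -0.23 and 0.11 by their brightest probes. The other Csnk1d probe also gave -0.23. The other Csnk1e probe read 2689.5 on day 3, against 1825 on day 0 (0.56, repeat-spot SD 0.42, 0.58 pooled). The largest difference was that of Fbxw11, a ubiquitin ligase subunit that recognises marked PER, with 2104 on day 3 against 1305 on day 0 (0.69, repeat-spot SD 0.42, 0.58 pooled). The probes of the phosphatase gene Ppp1cc were at odds: the brightest gave 0.29, and mMR027583 gave -2.54, with 125.5 on day 3 against 729.5 on day 0.

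All 10 fibroblast markers were detected on both days. Among them Fn1 was 4.16-fold and Lum 3.04-fold higher on day 3, Col1a1 was 2.09-fold lower, Dcn was saturated on both days and Vim on day 0. Of 8 fat cell markers 1 was detected, the lipase gene Lpl, which was at least 6.99-fold higher and saturated on day 3. Its other probe read 1110 on day 3, against 156 on day 0. The other 7 fat cell markers stayed below the threshold on both days. Higher on day 3 were Adipoq (120.5 on day 3, 12 on day 0), Fabp4 (59.5 and 10.5), Cidec (52.5 and 12) and Plin1 (44 and 21.5). Lep (15 and 6) and Cd36 (11.5 and 10.5) were near the floor, and Cfd was lower (7.5 and 15.5). Their raw day 3 intensities, from 11 for Cfd to 164 for Adipoq, were above most empty spots, so their levels are only bounded by the threshold. Normalized signals of all 8 summed to 59603.5 on day 3, against 8568 on day 0, and Lpl made up nearly all of this (59293 and 8480).

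Markers of other cell types went both ways. Normalized signals of 6 macrophage markers summed to 3901 on day 3, against 1241.5 on day 0, with 3 detected. Itgam made up most of the sum (3556 on day 3, 703.5 on day 0), Cd68 read 268 and 198.5, and Csf1r was at least 2.21-fold lower (51.5 and 269.5). The defining marker genes Ptprc (1.5 on day 3, -0.5 on day 0) and Adgre1 (10.5 and 4.5) stayed near 0. Sums for 4 endothelial markers were 632 on day 3 and 435 on day 0. Of these, Pecam1 was higher (568.5 on day 3, 189.5 on day 0), Kdr was lower (17.5 and 168), and Cdh5 and Tek were below the threshold. Sums for 4 epithelial markers were 191 on day 3 and 305.5 on day 0, with Krt18, the 1 detected, at 114.5 and 148 and Epcam at 1.5 and 2. The part of any of these cells in the clock gene differences was not tested.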

How the data were processed

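The deposited per-sample tables gave a single linear intensity per spot (39200 spots an array), labelled with Cy5 by Phalanx from 1 µg of amplified total RNA, per the labels' protocols. The median of empty spots was 0 on each day, so background appeared to be subtracted already; the sources used here name no scanner or image software. A series-wide table by the authors had linear intensity values for 11482 of the 29922 gene probes; between the days, 99.76% of its values, once sorted, were within 1% of each other.

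The 29922 gene probes were quantile normalized (limma 3.58.1, R 4.3.3), a floor of 10 was set, and log2 was taken. Each gene was represented by its brightest probe, judged by mean log2 signal. Symbols came from the platform annotation, updated through a GRCm38.p6 gene table: 17558 probes had a current symbol, 3410 a synonym, 52 were kept as given and 8902 had none. Probe sequences were not analysed here. Saturation was set at 65000. A fold is a lower bound where 1 day was below the threshold, and none is given where both were. The SD of a difference came from control features with 5 or 6 spots, by bins of log2 signal. Precision is limited by the number of arrays. The normalization was tested on simulated data. A far smaller share of probes changed there than the share of genes that differed by 2-fold here, so that test cannot settle the scaling.

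The members, the other gene lists and the 11 alternatives were chosen with earlier results of these data known. All 10 members were named whatever their values, as were 9 other clock genes, and of the other lists every detected gene that differed by 2-fold. Fbxw11, Ppp1cc and any other gene outside that rule were named after their values were seen.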

Additional observations from a re-analysis of the deposited data

How the results depend on the processing

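Single-gene differences were recomputed in 11 alternatives, giving 98 values, of which 78 lay within the repeat-spot SD of the reported one and 0 reversed a 2-fold call. Alternatives that changed only the detection filter left a gene's value as it was, and probe averages did so for genes with 1 probe. Part of this agreement was therefore fixed in advance, and only Per1 and Nfil3 had a 2-fold call that could reverse. The count of members 2-fold higher on day 3 was 2 of 9 as reported, against 12.8% of all detected genes. It was 1 of 9 under median scaling over all gene probes (Per1), against 7.8%. With no normalization it was 4 of 9 (Per1, Nfil3, Arntl and Cry2), against 35.7%. Where detection on both days was required it was 1 of 8 (Nfil3), against 10.1%. The count 2-fold lower was 0 as reported, against 10.3%, and 2 of 9 under median scaling over all gene probes (Per2 and Tef), against 24.2%. These counts are too small to be read as standing apart from the shares. The median of the members was 0.07 as reported, -0.33 under that scaling and 0.76 with no normalization. With the shift of all genes (-0.49 and 0.67) removed, it was 0.16 and 0.09, and the counts were 2 higher and 0 lower in both. That scaling and no normalization differ by a constant factor per array, so their likeness after the shift is removed is largely arithmetic. Over all detected genes, 1360 of 10656 were 2-fold higher and 1093 lower as reported. Median scaling over all gene probes gave 829 and 2586 of 10664, and no normalization gave 3940 and 315 of 11043. With the scaling median taken over probes that both days detected, 1891 (17.5%) and 957 (8.9%) of 10787 were 2-fold higher and lower. Detection on both days gave 952 and 795 of 9434. With no detection filter, the counts were 2237 (13.4%) and 1793 (10.8%) of all 16637 named genes. No paired analysis was possible because each day had 1 sample, and no sample could be left out for the same reason. Signal over background limits Cry1, Npas2 and the day 0 value of Per1, and spot error covers neither cultures nor hybridizations.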

Other observations

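Genes known as outputs of the clock or of the D-box factors went both ways. Of 12 listed, 10 were detected, 2 stood 2-fold higher on day 3 and 2 stood 2-fold lower, against 12.8% and 10.3% of all detected genes. With signals below the threshold set to it, 2 were higher and 1 was lower, since Id2 then fell short of 2-fold. The shares of all detected genes were then 10.2% and 8.51%, and 10 genes are too few to be set apart from them. Por, the electron donor of cytochrome P450 enzymes, read 10087.5 on day 3, against 4175.5 on day 0 (1.27), and its other probe gave 0.11. Alas1, the first enzyme of haem synthesis, read 17123 on day 3, against 7959 on day 0 (1.11, repeat-spot SD 0.34, 0.85 pooled). Wee1, a kinase that delays entry into mitosis, read 1936 on day 3, against 4250.5 on day 0 (-1.13, repeat-spot SD 0.42, 0.58 pooled). Id2, an inhibitor of helix-loop-helix factors, read 53 on day 3, below the threshold, against 229 on day 0, and was at least 1.88-fold lower. Nampt, which makes a precursor of NAD, read 635.5 on day 3, against 1121 on day 0 (-0.82, repeat-spot SD 0.34, 0.74 pooled). Por and Alas1 were above 0 and Wee1 and Nampt below 0 in 12 of 12 settings.

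Of 12 chromatin cofactors of the loop, 10 were detected, 0 were 2-fold higher and 1 was 2-fold lower on day 3, against 12.8% and 10.3% of all detected genes; 10 genes are too few to be set apart from these shares. That gene was Sirt1, the NAD-dependent deacetylase, which read 164.5 on day 3, against 469.5 on day 0 (-1.51, repeat-spot SD 0.34, 0.74 pooled), and it was below 0 in 12 of 12 settings. Kmt2a, a histone methyltransferase, differed by 0.88 and Wdr5, a subunit of its complex, by -0.92. Nampt, Kmt2a and Wdr5 were chosen after their values were seen.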
